A study of Mus musculus with 2 samples.

Results

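The genes described here encode the working parts of the lysosome: its soluble enzymes, its membrane proteins and the vacuolar proton pump (V-ATPase) that acidifies it. A list of 49 gene symbols, divided by protein role, was matched to the gene names of the array's probe annotation. Of these, 46 matched, out of 19505 named genes in the series, each through 1 probe set. The cathepsin gene Ctsd, the beta-galactosidase gene Glb1 and the membrane glycoprotein gene Cd68 were not analysed here. The cells were B16F10, a mouse melanoma line that makes melanin. They had received an expression plasmid for either GFP or NRF3 together with a vector for puromycin resistance, and puromycin-resistant stable cells were used. Both groups were then given forskolin, which activates adenylate cyclase, for 5 days, so the comparison is of NRF3 with GFP under forskolin. Each group was 1 Affymetrix array of total RNA, the labels do not say whether the stable cells were clones or pools, so errors and p-values cannot be given.

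The lysosome breaks down protein, glycan and lipid that reach it by endocytosis and autophagy. Its enzymes need an acid interior, which the V-ATPase maintains by coupling ATP hydrolysis in its V1 sector to proton movement through its V0 sector in the membrane. Many lysosomal genes carry E-box elements with the core CACGTG near their start, which are bound by the MiT/TFE transcription factors MITF, TFEB and TFE3. In pigment cells the melanosome is a lysosome-related organelle and MITF is the lineage's main regulator. NRF3, encoded by Nfe2l3, belongs to the cap'n'collar family, whose members bind antioxidant response elements as partners of small MAF proteins.

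Values are the deposited log2 expression values per probe set, made by robust multi-array averaging (RMA). Over all rows they reach 19.8, above the limit of 16 for a plain log2 of a 16-bit scanner reading. The exact scale is therefore unknown, and each fold is a fold on the deposited scale. A difference is the NRF3 value minus the GFP value. The detection floor was 5.89, the median over named probe sets, and the brighter value of a gene had to reach it. By that rule 42 of the 46 members were detected, as were 10162 of all genes. The 5222 negative control rows had medians of 6.12 with GFP and 6.37 with NRF3, above this floor. Their upper quartiles were 7.52 and 7.85, so detection by this rule does not by itself show expression. A size rule of at least 1.5-fold, 0.58 on the log2 scale, was used to count genes as higher or lower, and it is not a test. Nfe2l3 itself stood at 6.04 with GFP and 10.15 with NRF3. The highest of 23 background probe rows reached 7.11 with GFP and 8.16 with NRF3, so a value under 8.16 may hold background. All 7 melanocyte markers were detected (Tyr, Tyrp1, Dct, Pmel, Mlana, Sox10 and Mitf). Of 13 macrophage and osteoclast markers, 1 was detected, Fcgr1, with 6.27 for GFP and 6.24 for NRF3. In RNA from whole cultures, fewer expressing cells and less RNA per cell cannot be told apart.

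The promoters of the members that differed and held a searched motif are shown first, because members with and without these motifs are compared further on. RefSeq promoter windows (GRCm38.p6) cover 300 bases, 250 before the gene's start and 50 from it on, and 35 of the 46 members had at least 1. Both strands were searched for CACGTG, for the longer palindrome TCACGTGA, which contains it, and for TGACNNNGC, a core of the antioxidant response element. The stretches below run 5′ to 3′ on the gene's strand, with each match in capitals.
Gla, chrX:134601175-134601251, minus strand: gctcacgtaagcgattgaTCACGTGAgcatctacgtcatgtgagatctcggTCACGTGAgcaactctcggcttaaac
Mcoln1, chr8:3500430-3500498, plus strand: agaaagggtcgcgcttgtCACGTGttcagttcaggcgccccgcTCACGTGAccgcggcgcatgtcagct
Cln3, chr7:126583233-126583403, minus strand: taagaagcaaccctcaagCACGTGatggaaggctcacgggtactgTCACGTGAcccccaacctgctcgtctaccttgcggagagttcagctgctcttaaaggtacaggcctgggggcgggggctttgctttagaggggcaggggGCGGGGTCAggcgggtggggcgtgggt
Atp6v1a, chr16:44139278-44139409, minus strand: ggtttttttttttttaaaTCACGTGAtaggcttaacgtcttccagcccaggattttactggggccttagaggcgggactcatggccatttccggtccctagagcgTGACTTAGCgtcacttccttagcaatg
Atp6v0d1, chr8:105566047-105566086, minus strand: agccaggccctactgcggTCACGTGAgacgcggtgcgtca
Ctsl, chr13:64370733-64370770, minus strand: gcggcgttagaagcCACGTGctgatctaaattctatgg
Ctsa, chr2:164833742-164833790, plus strand: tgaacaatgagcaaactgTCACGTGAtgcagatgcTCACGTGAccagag
Psap, chr10:60277590-60277634, plus strand: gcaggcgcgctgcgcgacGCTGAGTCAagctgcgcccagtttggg
Atp6v1g2, chr17:35234993-35235027, plus strand: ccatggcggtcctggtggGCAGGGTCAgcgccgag
A second start of Cln3 also held a TGACNNNGC match: chr7:126585838-126585882, minus strand: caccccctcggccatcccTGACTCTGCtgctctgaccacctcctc
Lamp1 and Atp6v0e are added as members with E-boxes whose values lay within 1.5-fold, and were chosen after their values were seen.
Lamp1, chr8:13159082-13159169, plus strand: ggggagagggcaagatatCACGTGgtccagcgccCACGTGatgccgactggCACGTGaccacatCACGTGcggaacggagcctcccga
Atp6v0e, chr17:26676380-26676413, plus strand: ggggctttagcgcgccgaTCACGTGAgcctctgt

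CACGTG occurred in 12 of the 35 members with a window, 34.3%, against 8.09% of all 27025 genes in the promoter table and 11.8% of the 8387 detected genes with a window. TCACGTGA occurred in 7 of the 35 members, 20.0%, against 1.12% of all genes and 2.28% of detected genes. TGACNNNGC was found in 10 of the 35 members, 28.6%, against 14.0% and 16.5%. Among single windows rather than genes, the shares were 7.15% for CACGTG, 0.974% for TCACGTGA and 12.4% for TGACNNNGC. A match is a description of the letters and not evidence of binding.

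Across the 42 detected members, 12 passed the size rule upward with NRF3 and 6 downward. That is 28.6% and 14.3% of members, beside 17.0% and 23.6% of all detected genes. The median difference was 0.32 for the members and -0.07 for all detected genes. Differences lay above 0 for 28 members and below 0 for 14, beside 4654 and 5507 of all 10162 detected genes. With median centring, which raised all differences by 0.13, the split was 16 higher and 4 lower of 42. By the same step 21.8% of all detected genes were higher and 18.9% lower. The medians over all rows were 6.05 with GFP and 6.13 with NRF3, so the shift is not that of all rows. Among the 12 higher members without centring, 5 encode V1 subunits, 1 a V0 subunit, 2 membrane proteins and 4 soluble proteins. The 42 detected members themselves comprise 18 pump genes, 6 membrane proteins and 18 soluble proteins. Of the 38 members with a mean level of at least 9.51, the 75th percentile of values, 9 were higher and 6 lower, beside 17.0% and 21.9% of all genes that bright. Smpd1 only just passed the size rule, at 0.59, while Atp6v1f, at 0.57, Neu1, at -0.56, and Hexa, at 0.55, fell just short of it.

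**Figure D1:**
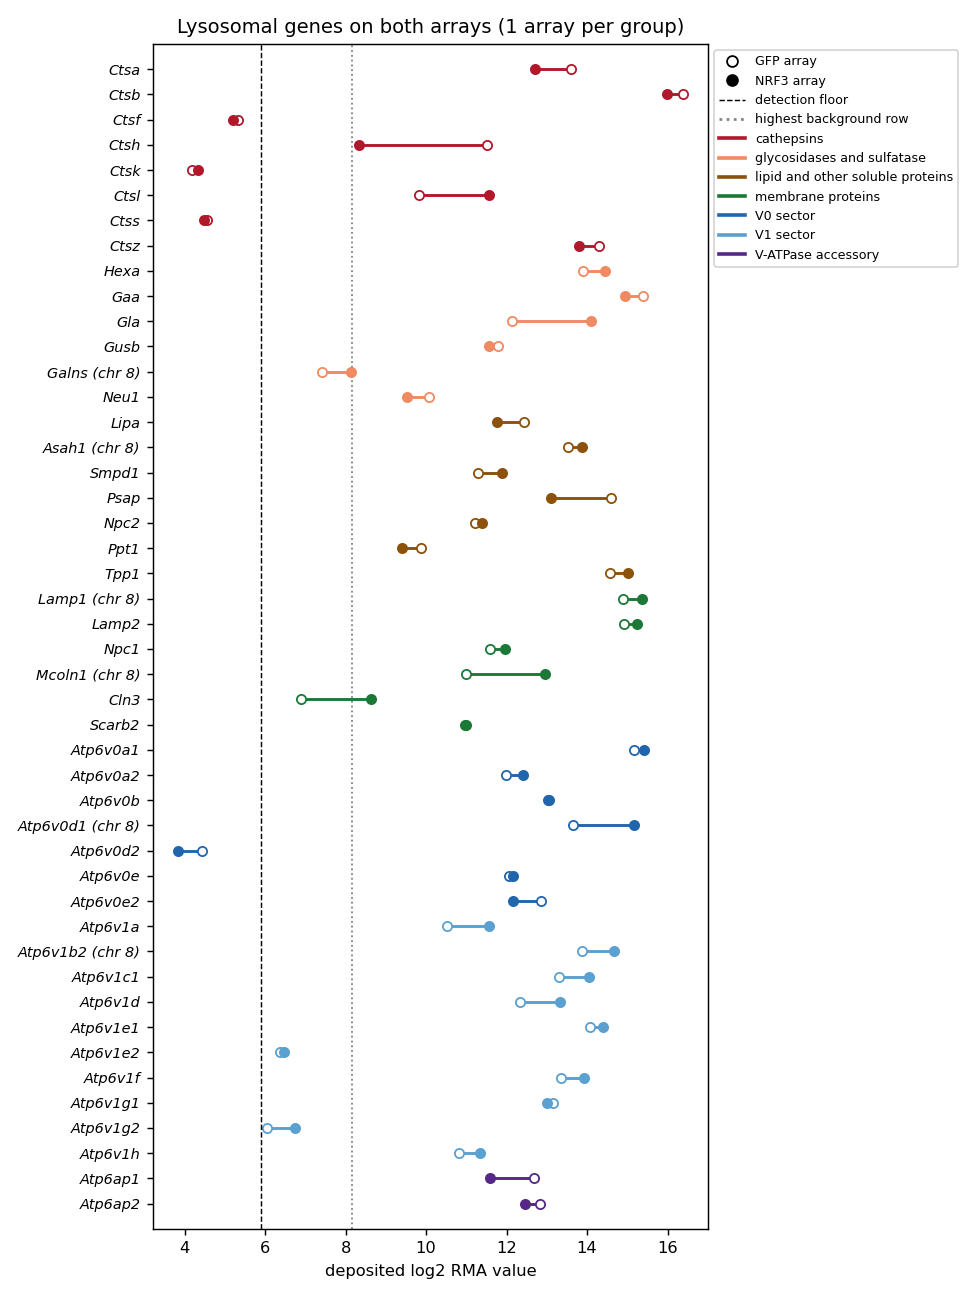
Deposited log2 values of the 46 named members, with the GFP array as open and the NRF3 array as filled points joined by a line, coloured by role. The dashed line is the detection floor of 5.89 and the dotted line the highest background row, 8.16; 4 members lie under the floor on both arrays, and Ctsh has the longest line.

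Cathepsins, the proteases of the lysosome, went both ways by large amounts. Ctsh, an aminopeptidase of the papain family, stood at 11.52 with GFP and 8.33 with NRF3. The difference of -3.19, or 9.12-fold lower, was the largest of any member, and 0.423% of detected genes had a difference as low. The NRF3 value lay only just above the highest background row, so the size of this difference may depend on background. Ctsl, a potent endopeptidase of the same family, stood at 9.82 and 11.57, a difference of 1.75 or 3.36-fold higher, which 1.11% of detected genes reached. Ctsh and Ctsl were the only cathepsins among the members more than 2-fold apart, in opposite directions.

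Ctsa, a carboxypeptidase that also protects beta-galactosidase and neuraminidase, stood at 13.61 with GFP and 12.70 with NRF3, a difference of -0.91, which came to -0.46, inside the size rule, relative to its chromosomal neighbours. The broad-acting cysteine protease gene Ctsb (16.38 and 15.98) and the carboxypeptidase gene Ctsz (14.28 and 13.79) lay within 1.5-fold, at -0.40 and -0.49. So 4 of the 5 detected member cathepsins had lower values in the NRF3 cells, with a median of -0.49. Lower values were also common among all genes, at 5507 of the 10162 detected. Ctsl lay above 0, as did Ctsc and Ctso, cathepsin genes outside the 49, at 0.27 and 1.61. Ctsf, Ctsk and Ctss were not detected, with GFP values of 5.32, 4.19 and 4.56 and NRF3 values of 5.20, 4.32 and 4.49. Ctsk is known for bone resorption by osteoclasts and Ctss for antigen presentation by immune cells.

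Among the glycosidases, which trim sugars from glycans and glycolipids, Gla differed most. It encodes alpha-galactosidase A, the enzyme deficient in Fabry disease, and stood at 12.14 with GFP and 14.09 with NRF3. The difference of 1.95, or 3.86-fold, was reached by 0.669% of detected genes. The sulfatase gene Galns, of keratan sulfate breakdown, was higher by 0.72, at 7.41 with GFP and 8.13 with NRF3, so both values may hold background. The other 4 detected members of this group lay within 1.5-fold.

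Hexa, a beta-hexosaminidase subunit, stood at 13.90 with GFP and 14.46 with NRF3, a difference of 0.55. Gaa, the acid alpha-glucosidase that breaks down glycogen, lay on the other side of 0, at 15.40 and 14.94. Neu1, which encodes the sialidase that CTSA protects, stood at 10.08 and 9.51, and its difference of -0.56 had the sign of that of Ctsa. Gusb, the beta-glucuronidase, stood at 11.79 and 11.56. Sugar-cleaving enzymes thus had no common direction, with 3 of 6 above and 3 below 0 and a median of 0.16.

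The genes of lipid breakdown and the remaining soluble proteins were also divided. Psap encodes prosaposin, the precursor of the saposins that present sphingolipids to their hydrolases, and stood at 14.60 with GFP and 13.11 with NRF3. That difference of -1.49, or 2.81-fold lower, was the second lowest of the members. Lipa, the acid lipase that frees cholesterol from esters, stood at 12.44 and 11.76, a difference of -0.67, which centring the arrays brought to -0.55, inside the size rule. Smpd1, the acid sphingomyelinase, stood at 11.29 and 11.88, and its difference came to 0.36 relative to its neighbours.

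The other 4 genes of this group lay within 1.5-fold. Asah1, the acid ceramidase, stood at 13.52 with GFP and 13.88 with NRF3, and Npc2, the soluble cholesterol carrier, at 11.21 and 11.40. The palmitoyl-protein thioesterase gene Ppt1 stood at 9.86 and 9.41, and the tripeptidyl peptidase gene Tpp1 at 14.57 and 15.02. Over all 18 detected soluble proteins 4 were higher and 4 lower, and their median was -0.31, so that the share of lower genes, 22.2%, was near the 23.6% of all detected genes.

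All 6 detected membrane proteins had higher values in the NRF3 cells, 2 of them by more than 1.5-fold, with a median of 0.42. Beside these, 4654 of all 10162 detected genes lay above 0, and 17.0% were at least 1.5-fold higher. Mcoln1 encodes mucolipin 1 (TRPML1), the channel that releases calcium from the lysosome. It stood at 11.00 with GFP and 12.96 with NRF3, and its difference of 1.96, or 3.89-fold, was the highest of any member. Cln3, which encodes the membrane protein lost in juvenile Batten disease, stood at 6.88 and 8.63. Its difference of 1.74 rests on a GFP value under the highest background row of that array, 7.11, so its size depends on background.

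The other 4 membrane proteins lay within 1.5-fold. Lamp1 stood at 14.90 with GFP and 15.37 with NRF3, and Lamp2, also a receptor of chaperone-mediated autophagy, at 14.92 and 15.25. Npc1, which exports cholesterol from the lysosome, stood at 11.60 and 11.96. Scarb2, the receptor that carries glucocerebrosidase to the lysosome, stood at 10.97 and 11.00, the smallest difference of any detected member, 0.03.

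**Figure D2:**
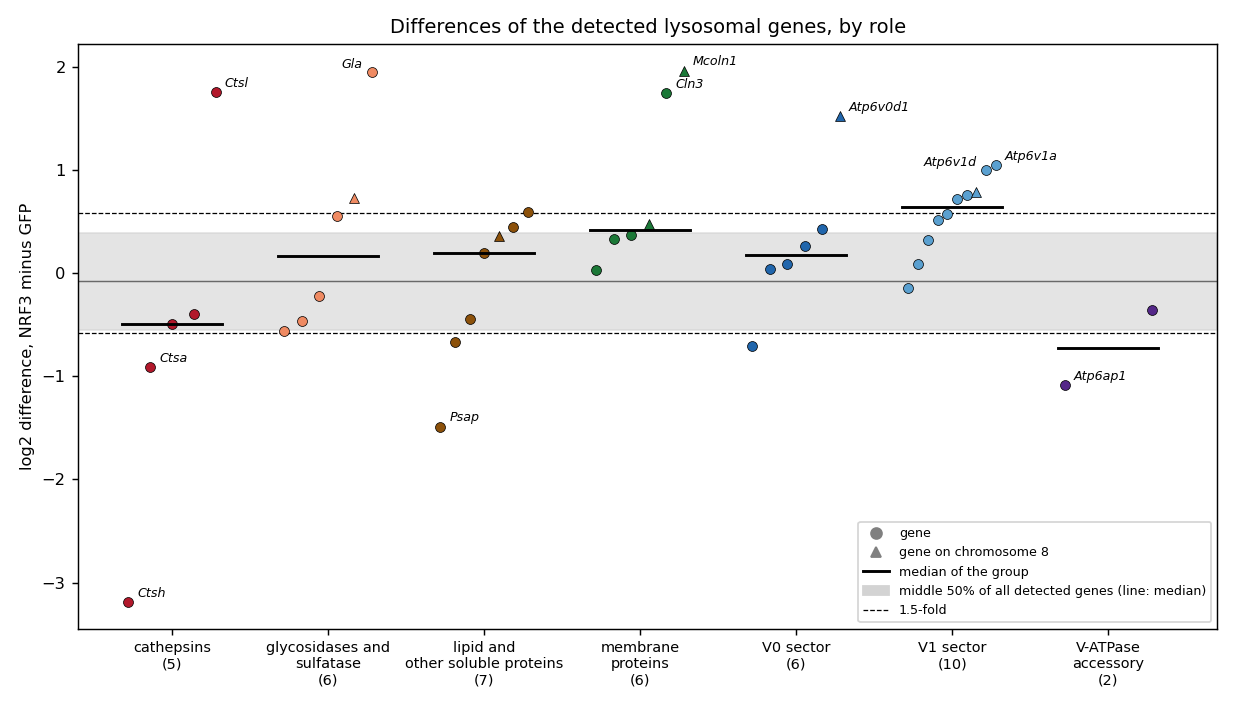
The log2 difference of NRF3 minus GFP for each of the 42 detected members, by role, with the number of genes in brackets; triangles are genes on chromosome 8, thick bars are medians, dashed lines mark 1.5-fold and the grey band is the interquartile range of all detected genes. The V1 sector has the highest median, 0.64, and the spread is widest among the cathepsins, from -3.19 to 1.75.

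Of the pump's sectors, V1 had the most genes past the size rule. Its 10 subunit genes were all detected, 9 of 10 lay above 0, and the median was 0.64. The size rule counted 5 of them as higher and 0 as lower, 50% and 0%, beside 17.0% and 23.6% of all detected genes. Atp6v1a, the catalytic A subunit, stood at 10.52 with GFP and 11.56 with NRF3, 2.06-fold higher. Atp6v1d, a subunit of the central rotor, stood at 12.33 and 13.34, a gap that 6.74% of detected genes reached. The B subunit gene Atp6v1b2 stood at 13.88 and 14.67. It lies on chromosome 8, where 47.5% of detected genes were at least 1.5-fold higher. Atp6v1c1, of the C subunit that helps join the sectors, stood at 13.30 and 14.06. The catalytic head and the rotor were thus both represented among the higher genes.

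Other V1 genes had smaller differences. Atp6v1f (13.36 and 13.93) and Atp6v1h (10.82 and 11.34), the regulatory H subunit, differed by 0.57 and 0.52, and both passed the size rule after median centring, at 0.70 and 0.64. The stalk subunit genes Atp6v1e1 (14.09 and 14.40) and Atp6v1g1 (13.14 and 13.00) lay at 0.32 and -0.14. For 2 isoforms of the stalk subunits, Atp6v1g2 (6.04 and 6.75) and Atp6v1e2 (6.38 and 6.46), all values lay under the highest background row of the pertinent array. Atp6v1g2 is nonetheless counted among the 5 higher V1 genes, and without it 4 remain.

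V0 genes, of the proton-conducting sector, had a median of 0.18, with 1 higher and 1 lower of 6 detected. That is 16.7% each way, beside 17.0% higher and 23.6% lower of all detected genes. Atp6v0d1, which links the rotor to the membrane ring, stood at 13.64 with GFP and 15.16 with NRF3, a difference of 1.52 or 2.87-fold higher. The a subunit genes Atp6v0a1 (15.16 and 15.42) and Atp6v0a2 (11.99 and 12.41) differed by 0.26 and 0.42. Little difference was seen for Atp6v0b, of the proteolipid ring, at 13.02 and 13.06, or for Atp6v0e, at 12.06 and 12.15.

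The e subunit is encoded by either of a pair of genes, and these differed from each other. Atp6v0e2 stood at 12.86 with GFP and 12.15 with NRF3, a difference of -0.71, while Atp6v0e lay at 0.09. Median centring brought Atp6v0e2 to -0.58, marginally inside the size rule. Atp6v0d2, the d subunit gene known from osteoclasts, was not detected, at 4.44 and 3.85. Both accessory proteins of the pump had lower values. Atp6ap1 stood at 12.67 and 11.58, a difference of -1.09 or 2.12-fold lower, and Atp6ap2, the prorenin receptor, at 12.83 and 12.47. Over the whole pump the size rule counted 6 of 18 detected genes as higher and 2 as lower, and the median was 0.37. These were 33.3% and 11.1%, beside 17.0% and 23.6% of all detected genes.

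Members with an E-box in a promoter window had higher differences than members without. The 11 detected members with CACGTG had a median of 1.04, and 6 of them were higher and 1 lower. The 21 detected members with a window but no CACGTG had a median of 0.08, with 3 higher and 4 lower. Over all detected genes with a window the medians were -0.03 with CACGTG, for 989 genes, and -0.09 without, so the gap seen in the members was far smaller there. The shares at least 1.5-fold higher were 21.2% of those 989 genes and 16.2% of the rest.

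Most detected members with the longer palindrome were higher, but not all. Of the 7 detected members with TCACGTGA, 5 were higher, namely Gla, Mcoln1, Cln3, Atp6v0d1 and Atp6v1a. Over all 191 detected genes with the palindrome, 22.5% were higher and 19.9% lower, beside 16.6% and 23.7% of those without. Ctsa and Atp6v0e were the others: Ctsa carries a pair of copies around its start and was lower, and Atp6v0e lay at 0.09. Ctsl, at 1.75, has no copy of the palindrome. Lamp1, with 4 copies of CACGTG and none of the palindrome, lay at 0.47. Presence of the letters therefore did not fix the direction of a member. Chromosome 8 holds 3 of the 11 detected members with CACGTG and 0 of the 21 without. Among E-box members off chromosome 8 the median was 0.57 for 8 genes, against 0.08 for the 21 without. Off that chromosome, 3 of the 5 members with the palindrome were higher and 1 lower. What parts the motif and the chromosome had was not tested.

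Matches to TGACNNNGC were not concentrated among the higher members. The 10 detected members with this core had a median of 0.35, and the 22 without had one of 0.14. Psap, with a match whose first letter lies 20 bases before its start, was lower, and Atp6v1a, Cln3 and Atp6v1g2 were higher, the first 2 with E-boxes too and Atp6v1g2 without. Ctsb, Ctsh, Galns, Asah1, Npc1, Atp6v0a2, Atp6v0d2, Atp6v1b2, Atp6v1c1, Atp6v1g1 and Atp6v1h had no window in the table.

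**Figure D3:**
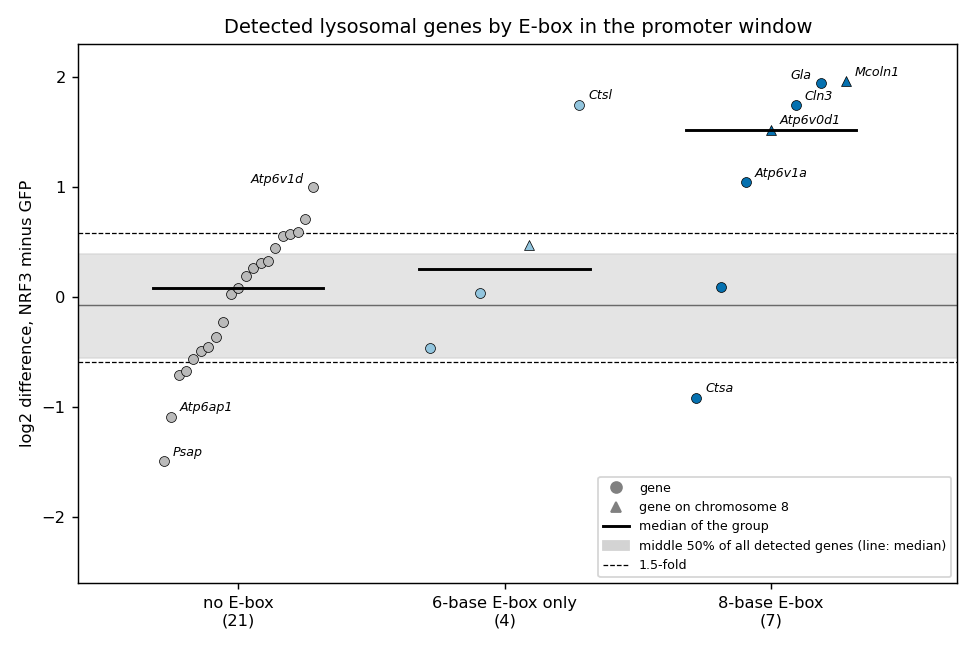
The log2 difference of the 32 detected members that have a promoter window, divided into those with no E-box, those with the 6-base core alone and those with the 8-base palindrome; triangles are genes on chromosome 8, bars are medians and the grey band is the interquartile range of all detected genes. The medians are 0.08, 0.25 and 1.52, and Ctsa is the gene of the 8-base group below the lower dashed line.

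Position on chromosome 8 moved with the differences. All 6 members there had higher values, with a median of 0.75, and 4 of them passed the size rule: Mcoln1, Atp6v0d1, Atp6v1b2 and Galns. Lamp1 and Asah1, at 0.47 and 0.35, lay within it. But 47.5% of the 549 detected genes of chromosome 8 passed it upward and 9.29% downward, and their median was 0.56. Off chromosome 8, 8 of 36 detected members were higher and 6 lower, beside 15.3% and 24.4% of other genes, and the median was 0.14, against -0.10 for those other genes. For the pump without its chromosome 8 genes the median was 0.29 over 16 genes, with 4 higher and 2 lower. What part the position on chromosome 8 had in these differences was not tested.

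Each member was also set against the median of its nearest detected neighbours, 10 on each side where the chromosome had them. After subtraction 14 of 42 members passed the size rule upward and 5 downward, beside 18.4% and 20.0% of all detected genes. On chromosome 8, Mcoln1 kept a difference of 1.49 beyond neighbours at 0.47, and Atp6v1b2 one of 0.65 beyond 0.14. Relative to the median of all chromosome 8 genes, Atp6v1b2 came to 0.23 and Galns to 0.16, inside the size rule. Atp6v0d1, whose neighbours lay at 0.97, came to 0.55, and Galns to 0.57, both just under the size rule. Lamp1 and Asah1 came to -0.03 and -0.24, so their higher values were no greater than those around them.

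Elsewhere the neighbours moved several pump genes outward. Atp6v1h, on chromosome 1 among genes with a median of -0.64, came to 1.16. Atp6v1a and Atp6v1d came to 1.20 and 1.22, and Atp6v0a1, from 0.26, to 0.76. Outside the pump, the membrane protein genes Lamp2 and Npc1 came to 0.83 and 0.60, both past the size rule. Scarb2, from 0.03, came to -0.29, below 0 as Lamp1 was by this measure. The median of the 18 pump genes was 0.55 by this measure, with 8 higher and 2 lower. That of the 24 other members was 0.00, with 6 higher and 3 lower. Gla and Cln3 stood 1.73 and 1.72 above their neighbours and Ctsl 1.23, while Ctsh, amid neighbours at 0.36, stood at -3.55.

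**Figure D4:**
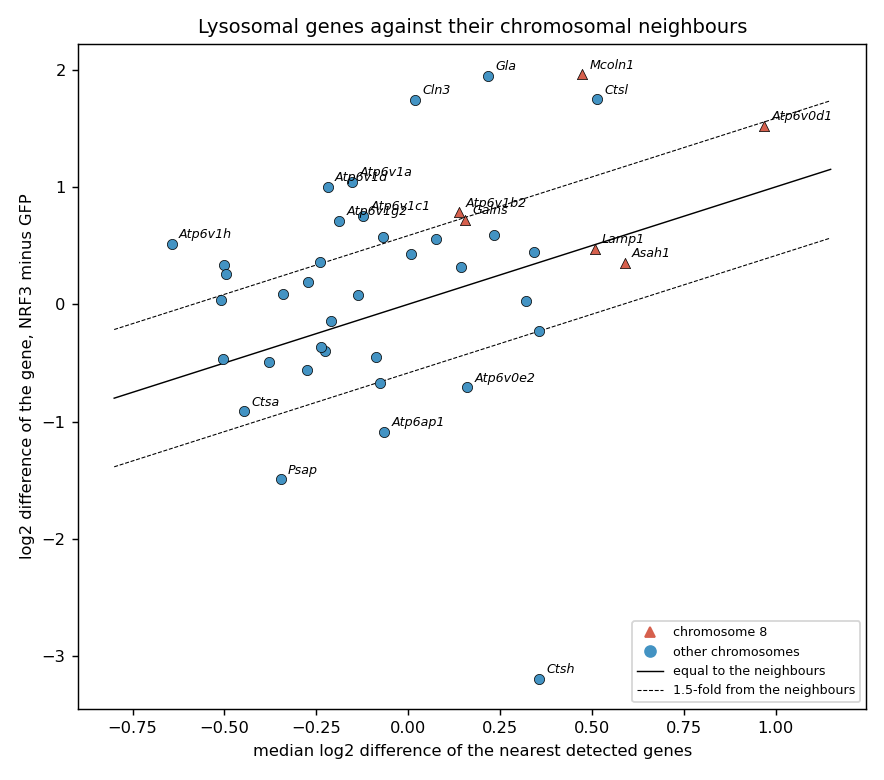
Each detected member's log2 difference (vertical) against the median difference of its neighbouring detected genes (horizontal), with chromosome 8 members as red triangles. Points on the solid line equal their neighbours and those beyond the dashed lines differ from them by 1.5-fold or more; Atp6v0d1 sits farthest right, at 0.97, and Ctsh at the bottom.

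Other lysosomal genes and their regulators were counted from lists that did not use these members. Of 21 detected further hydrolases and related proteins 2 passed the size rule upward and 6 downward, and the median was -0.02. These were 9.52% and 28.6%, beside 17.0% and 23.6% of all detected genes, so the lower share was near that of all genes. Lgmn, the asparaginyl endopeptidase that processes cathepsins, lay at -1.33 and the dipeptidyl peptidase gene Dpp7 at -1.17. Ctso, a further cathepsin, lay at 1.61 from a GFP value under 7.11, the highest background row there, and Aga, the aspartylglucosaminidase gene on chromosome 8, at 1.02. Of 18 further membrane proteins and transporters 6 passed it upward and 1 downward, 33.3% and 5.56%, and the median was 0.30. Slc38a9, the arginine sensor of the lysosome, was highest, at 1.27, and Slc17a5, the sialic acid exporter, followed at 1.13. Tpcn1, a two-pore channel, lay at -0.90 and the melanosomal glycoprotein gene Gpnmb at -0.35.

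Genes that sort enzymes to the lysosome had no common direction, with 2 higher and 3 lower of 9. These were 22.2% and 33.3%, beside 17.0% and 23.6% of all detected genes. The 2 mannose 6-phosphate receptors went opposite ways. Igf2r, the larger receptor, stood at 13.28 with GFP and 10.83 with NRF3, a difference of -2.46, and M6pr at 13.62 and 14.51, a difference of 0.89. The adaptor genes Gga3 and Gga2 lay at -0.94 and 0.84. Of 4 detected further pump genes, the assembly factor genes Dmxl2 and Wdr7 were higher, at 1.08 and 0.75. Dmxl1, related to Dmxl2, lay at -0.72 and Tcirg1, an a subunit gene, at 0.20. The pump isoforms Atp6v0a4, Atp6v1b1, Atp6v1c2 and Atp6v1g3 were not detected.

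Ragulator and tethering genes, which anchor mTORC1 and fuse organelles with the lysosome, counted 5 higher and 1 lower of 14. These were 35.7% and 7.14%, beside 17.0% and 23.6% of all detected genes. Vps18, among the 5, stood at 6.94 with GFP and 7.67 with NRF3, under the highest background row of each array. Lamtor1, the Ragulator's membrane anchor, lay at 1.32 and Lamtor3 at 0.85, while Vps16 lay at -0.77 and Vps39 at -0.37. Among MiT/TFE factors and the folliculin genes that control them, 5 of 6 detected were higher and 0 lower, and the median was 0.90. One of the 5, Tfeb, stood at 6.90 with GFP and 7.79 with NRF3, under the highest background row of each array. Mitf stood at 14.26 with GFP and 15.19 with NRF3, a difference of 0.93, and Flcn, which encodes folliculin, at 11.10 and 12.27, a difference of 1.17. Fnip1 and Tfe3 had the lowest differences of that list, 0.37 and 0.78. Over all 72 detected genes of these lists 22 were higher and 12 lower, 30.6% and 16.7%, beside the 17.0% and 23.6% of all detected genes.

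**Figure D5:**
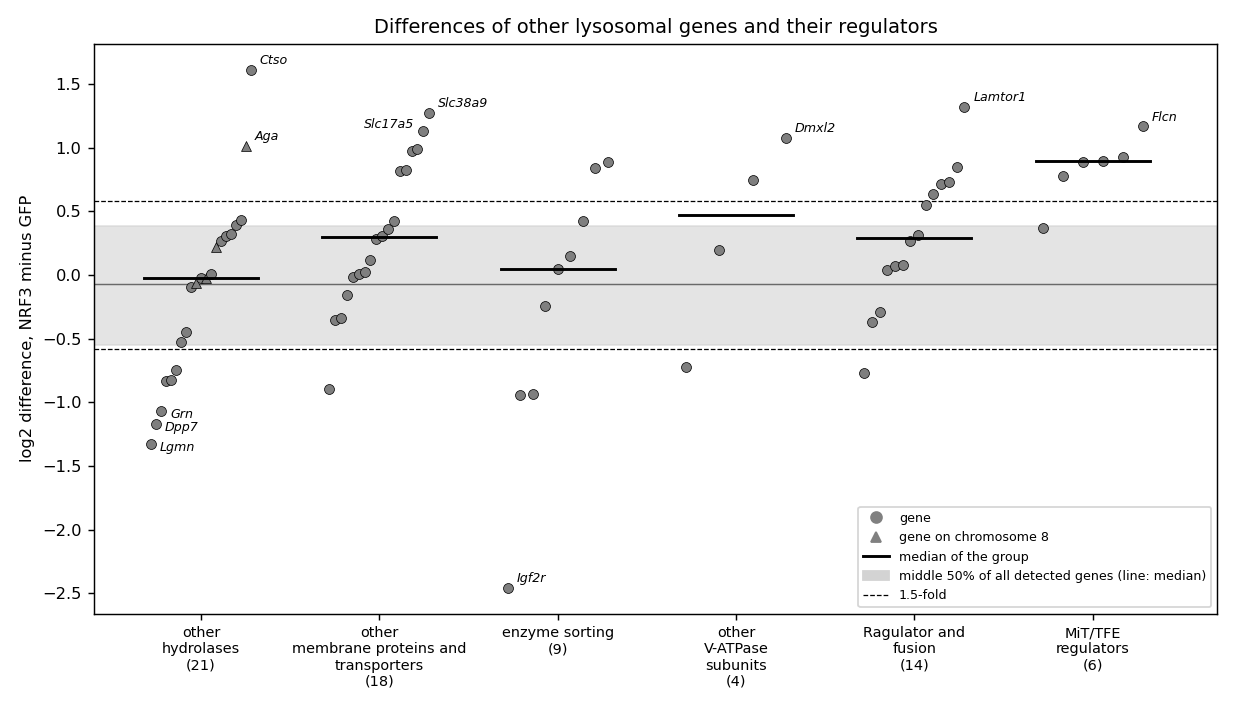
The log2 difference of the detected genes of 6 further lists of lysosomal genes and regulators, with the same marks as in the plot by role; the number of genes is in brackets. The MiT/TFE list has the highest median, 0.90, all 6 of its genes lie above 0, and Igf2r, at -2.46, is the lowest gene.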

How the data were processed

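Total RNA of 2 cultures was measured on 2 single-colour Affymetrix arrays, 1 per group. The deposited log2 values were made with Affymetrix Expression Console and RMA, per the submitters' processing notes(version, background settings and build: not given in the sources used here). The series' title and its design text supply the treatment. Of 28846 rows, 19572 had a gene symbol in the platform annotation, and the probe set with the highest mean was used for 55 genes with several, none of them members. Chromosome and order came from RefSeq (GRCm38.p6), as did the promoter windows. Printed stretches reach up to 18 bases beyond the matches, within the window and no more than 18 bases into the gene. All members are named. Members, lists and rules were chosen with earlier results of these data known. Alternatives were other floors, scalings (lowess span 0.3), probe set means, size rules, chromosome medians and leaving out chromosome 8. Subtraction of neighbours and a floor at the highest background row were chosen after seeing the data. Python 3.11.15, pandas 2.3.3 and statsmodels 0.14.6 were used, and the functions were tested on simulated data. Array data carry no read depth, and the number of arrays limits the precision.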

Additional observations from a re-analysis of the deposited data

How the results depend on the processing

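No paired analysis was possible because each group had 1 array, and with 1 array per group no result has an error. At 1.5-fold, all floors, scalings, chromosome and neighbour corrections tried gave between 8 and 16 higher members and between 4 and 7 lower. The ends of these ranges are not directly comparable, because the number of members and the share of all genes also changed. The 8 was out of 36 members off chromosome 8, beside 15.3% of other genes. The 16 and the 4 were out of 42 with median centring, beside 21.8% and 18.9% of all detected genes. The 7 was out of 46 without a floor, where smaller shares of all genes passed the rule each way. A 2-fold rule gave 7 higher and 3 lower of 42, beside 6.75% and 11.0% of all detected genes. A rule of 25% higher, or its reciprocal, gave 21 and 12, beside 28.2% and 36.1%. The members' median of 0.32 became 0.45 with median centring and 0.14 without chromosome 8. The cathepsin median of -0.49 became -0.26 without a floor, -0.37 with median centring, -0.27 with chromosome medians subtracted and -0.17 with neighbour medians subtracted. The V-ATPase median of 0.37 became 0.50 with median centring and 0.55 with neighbour medians subtracted. No result changed sign under these alternatives while past the size rule. Signals near the background rows limit Cln3, Ctsh, Galns, Atp6v1e2 and Atp6v1g2.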
